A study of Mus musculus with 12 samples.

Results

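The livers of mice fed a high-fat diet and treated with mRNA for NM-FGF19, a non-mitogenic form of the hormone FGF19, were compared with the livers of lean mice on normal chow. The libraries were taken by their labels, which gave 8 of the 12 samples in the series, 4 NM-FGF19 and 4 lean. All were liver RNA from male C57BL/6NTac mice, and each sample was sequenced from poly(A) RNA and counted per gene. The NM-FGF19 mice were kept on high-fat diet and given weekly injections of NM-FGF19 mRNA in lipid nanoparticles for 6 weeks. Lean mice ate normal chow and received lipid nanoparticles with a control mRNA on the same schedule, so both groups carry the particle and the injections, but diet and mRNA change together between them. The remaining 4 mice had the high-fat diet with control mRNA (HFD control), and their values stand beside those of the 8 libraries where they help to place a gene. The design text gives an age of 24 weeks, 21 weeks of diet before treatment and killing 24 hours after the last dose, and the labels give 28 weeks of feeding in all. Whether the age refers to the start or the end of feeding is not stated. Replicates are labelled by number only, so p-values measure the spread between these samples.

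FGF19 is a gut hormone released after bile acids reach the ileum, and its mouse counterpart is Fgf15. It acts on hepatocytes through FGFR4, which needs beta-klotho as a co-receptor, signals through the ERK kinases, and lowers transcription of the enzymes that turn cholesterol into bile acids. Long high-fat feeding fills hepatocytes with fat, draws monocytes into the liver and activates the stellate cells that lay down collagen.

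Library totals were 23743415 to 30349156 counts in lean and 26809039 to 30014092 in NM-FGF19 livers. Levels are given as CPM, the counts scaled to the library total times its TMM factor, and in these 8 libraries 3 counts equal 0.0989 to 0.153 CPM. Log2 CPM values of replicates correlated across genes at 0.95 to 0.976 within lean and 0.958 to 0.978 within NM-FGF19. On the first 2 principal components, lean 3 and NM-FGF19 4 lay farthest from the centres of their groups. Lean 3 held 1250 CPM of Igfbp1 (others 13.4 to 57.2), a binding protein for insulin-like growth factors, and 259 CPM of the cell cycle inhibitor Cdkn1a (others 2.16 to 34.6). Both genes were chosen after their values were seen, and their part in the results was not tested. The share of counts from the albumin gene Alb was 4.83% ± 0.514 in lean, 3.69% ± 0.958 in HFD control and 7.61% ± 1.66 in NM-FGF19 livers (SD, n = 4 each), and mitochondrial genes took 4.51% to 5.72% in NM-FGF19 and 4.69% to 5.10% in lean livers. Of 12 hepatocyte markers 0 were called, with a median log2 change of -0.13. HFD control columns carry the name mOX40L in the count table. The gene for OX40L, Tnfsf4, had 0 counts in lean, 0 in HFD control and 2 in NM-FGF19 livers, and the labels do not say whether HFD control and lean mice received the same control mRNA.

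Of 15274 genes tested, 228 (1.49%) differed between NM-FGF19 and lean livers, 154 (1.01%) higher and 74 (0.484%) lower under NM-FGF19. Of the gene lists examined, those with the most genes higher were the interferon response (9 of 30), cell cycle (5 of 25) and recruited macrophage markers (4 of 14), and those with the most genes lower were bile acid synthesis (4 of 18), neutrophil markers (3 of 10) and the acute phase response (3 of 22). Calls were made at an adjusted p under 0.05 with edgeR's quasi-likelihood F test and Benjamini-Hochberg adjustment, and every adjusted p given for a gene comes from that test. Changes are log2 fold changes with their standard errors. The median size of a called change was 1.54 on the log2 scale, and 167 of the 228 exceeded 2-fold. An unadjusted p under 0.05 was reached by 2557 genes. Library values of the 2 groups did not overlap for 226 of the 228 called genes, against 1574 of all genes tested (10.3%). HFD control livers differed from the same lean livers at 1272 genes (8.33%), and NM-FGF19 from HFD control livers at 66 (0.432%). These comparisons share libraries with the first, so their values are set side by side and their gene sets are not counted against each other.

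**Figure D1:**
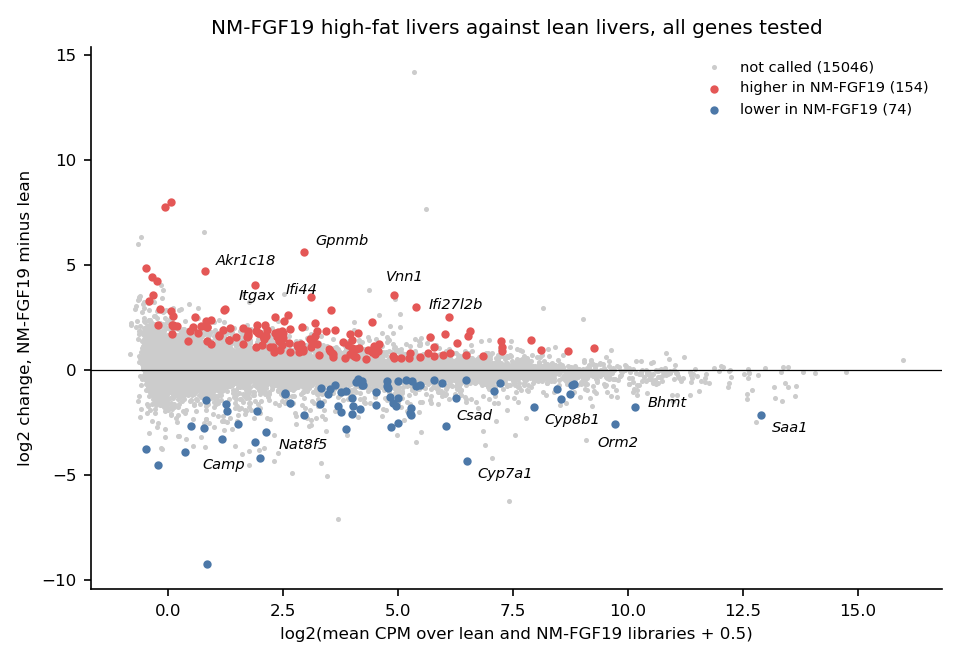
Log2 fold change of NM-FGF19 against lean (vertical) over mean log2 CPM (horizontal) for the 15274 genes tested, 1 point per gene, with the 154 genes called higher and the 74 called lower in colour. The called genes spread over the whole range of expression, and named genes such as Gpnmb at the top and Cyp7a1 at the bottom are labelled.

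These counts were smaller in every fit with 1 of the 8 compared libraries left out, which also leaves fewer livers in its group. Leaving out each of the 8 libraries in turn gave 43 to 130 genes higher and 24 to 71 lower, with totals of 87 (lean 2 left out), 119 (lean 3), 95 (lean 4), 71 (NM-FGF19 1) and 67 (NM-FGF19 4) in place of 228. Of the 65 called genes named here, 25 kept their call in all 8 of those fits, and for the others each library named as one a call was kept or lost without was left out alone. Leaving out lean 3 and NM-FGF19 4 together gave 49 calls, 29 higher and 20 lower, and 16 of those 25 genes kept their call. The 9 that lost it were Gpnmb, Ifi27l2b, Ccr2, Bhmt, Camp, Fars2, Akr1c18, Elovl2 and Pctp. Scaling by library totals in place of TMM raised the share of calls that were higher from 67.5% to 86.9%, and sample quality weights lowered it to 51.2%.

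Bile acid synthesis was lower in NM-FGF19 livers than in lean livers at its best known steps. Of 18 tested genes of synthesis and conjugation, 4 fell, 0 rose and 14 did not pass. The list had a median log2 change of -0.38, against -0.01 over all genes tested and -0.13 for HFD control against lean. Those that fell were Cyp7a1, Cyp8b1, Cyp27a1 and Csad.

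Cyp8b1, the sterol 12-alpha-hydroxylase that sets how much cholic acid is made, stood at 472, 345, 305 and 405 CPM in the 4 lean livers and at 90.8, 82.3, 151 and 123 CPM in the 4 NM-FGF19 livers. The groups did not overlap, and every treated liver lay under the lowest lean value by a wide margin. The change was -1.77 ± 0.22 (adjusted p = 0.00324), and it was -1.72 against HFD control livers (adjusted p = 0.00699), which held 367 ± 65.4 CPM (SD, n = 4). Csad, which makes hypotaurine on the way to the taurine that mouse bile acids are conjugated with, had 86, 96.4, 158 and 110 CPM in lean livers. Under NM-FGF19 it had 18.1, 9.31, 18.2 and 25.3 CPM. Its change was -2.67 ± 0.32 against lean (adjusted p = 0.00324) and -3.13 against HFD control (adjusted p = 0.00487). Both genes differed from both other groups, which a naming rule described below also asked for, so that position is given as a description. HFD control against lean did not pass for either gene (adjusted p = 0.901 for Cyp8b1 and 0.369 for Csad).

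Cyp27a1, the sterol 27-hydroxylase of the alternative route, had 626, 526, 668 and 550 CPM in lean livers and 246, 255, 294 and 265 CPM in NM-FGF19 livers. The groups lay far apart for their spread, with a change of -1.16 ± 0.14 (adjusted p = 0.00324). HFD control livers lay between, at 419 ± 61 CPM (SD, n = 4), lower than lean by the same test (log2 change -0.50, adjusted p = 0.0475). Against them the NM-FGF19 value was -0.66 (adjusted p = 0.0696).

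Cyp7a1, the rate-limiting enzyme of the classical route, varied widely in lean livers, with 431, 64.1, 155 and 33.9 CPM. NM-FGF19 livers had 5.15, 20.2, 3.28 and 5.7 CPM, all under the lowest lean value. The log2 change was the lowest among the called genes named here, at -4.32 ± 0.93 with a 95% interval from -6.36 to -2.28, and the adjusted p was 0.0489. That call held only without lean 4 or NM-FGF19 2 and was lost without each of the other 6 libraries (adjusted p up to 0.133). HFD control livers held 237 ± 128 CPM (SD, n = 4), and the value against them was -4.79 (adjusted p = 0.0672). Of the genes that did not pass, Baat, the enzyme that joins bile acids to taurine, had a change of -0.60 (adjusted p = 0.055).

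**Figure D2:**
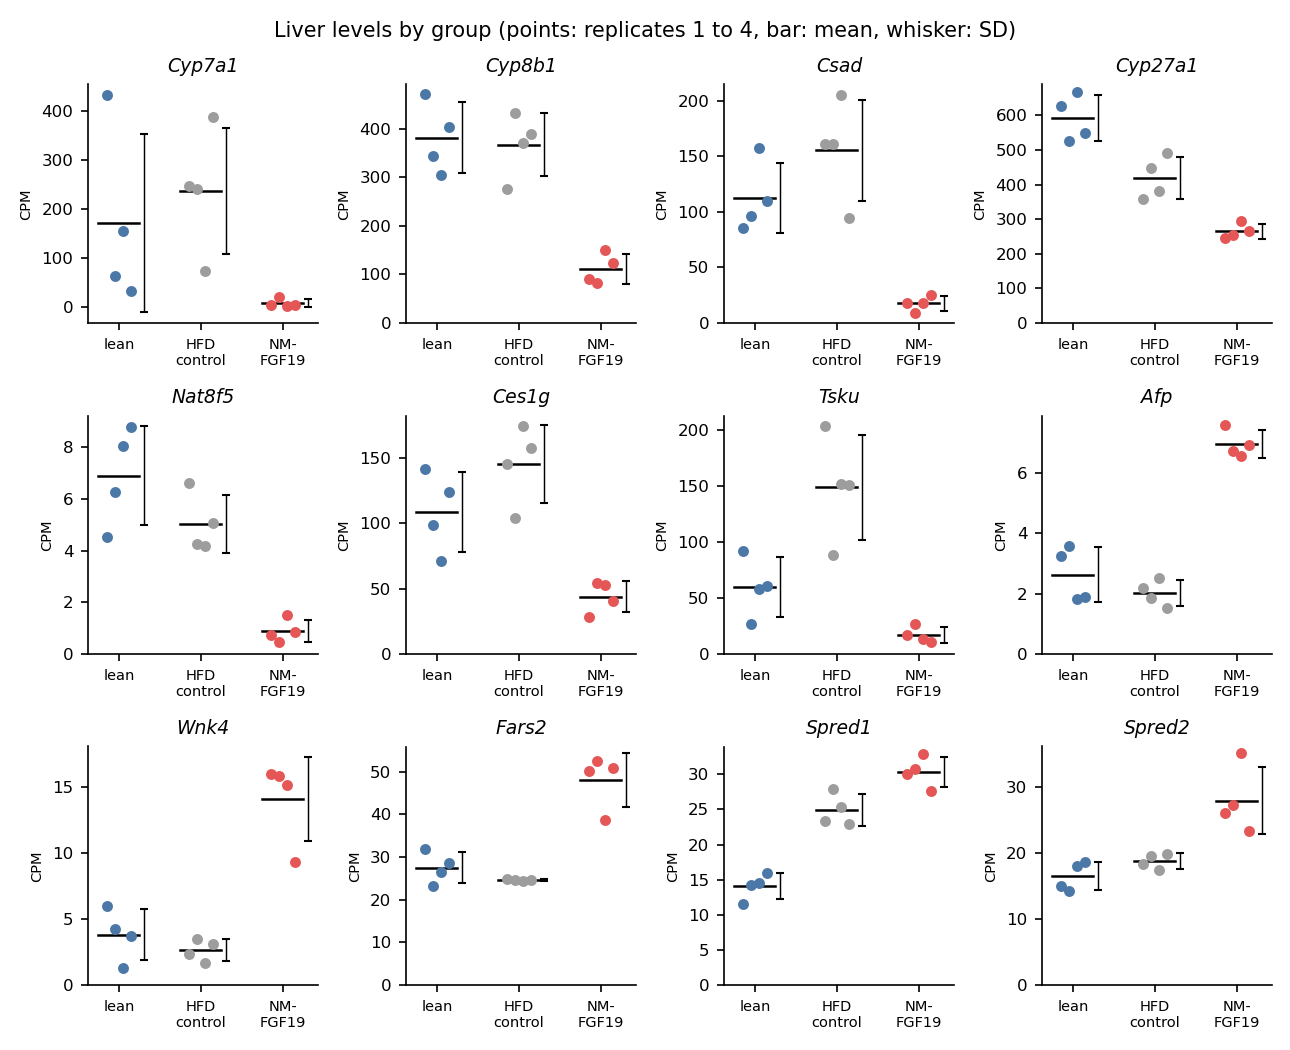
CPM of 12 genes (vertical, linear axes) by group (lean, HFD control, NM-FGF19), with 1 point per replicate, a bar at the mean and a whisker of 1 SD (n = 4). Cyp8b1, Csad, Cyp27a1 and Nat8f5 are low in all 4 NM-FGF19 livers, and Afp and Fars2 are high in all 4. Spred1 is above lean in both high-fat groups, which overlap, and the Cyp7a1 panel shows the wide spread of the lean livers.

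None of 14 tested genes of bile acid transport and sensing passed, with a median of 0.15; 1 rose without lean 1 and 1 without NM-FGF19 1. Nr0b2, the small heterodimer partner that represses Cyp7a1, had 11.6, 19.6, 13.2 and 62.8 CPM in lean and 54.8, 41.2, 31.7 and 27.3 CPM in NM-FGF19 livers. Lean 4 lay above all treated livers and the other 3 lean livers below them, and the change was 0.53 ± 0.52 (95% interval -0.61 to 1.67, adjusted p = 0.667) with it and 1.40 without it. The change of Nr0b2 was 0.29 without lean 1, 0.32 without lean 3 and 0.32 without NM-FGF19 1, so its size is not settled by these libraries.

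The hormone's receptor genes did not pass the test. Fgfr4 had 58.4 ± 10.3 CPM in lean and 41.6 ± 7.54 CPM in NM-FGF19 livers (SD, n = 4), a change of -0.49 ± 0.23 (adjusted p = 0.295). Klb, which encodes beta-klotho, had 30.1 ± 9.57 and 29.9 ± 5.35 CPM, a change of -0.01 with a 95% interval from -0.53 to 0.51 (adjusted p = 0.993). Fgf21, a liver hormone that also uses beta-klotho, lay at 0.137 to 1.79 CPM in lean livers and at 0.954, 0.385, 0.468 and 4.91 CPM in NM-FGF19 livers (adjusted p = 0.784). Without NM-FGF19 4 its change was -0.79, against 0.68 with all libraries. Fgf15 had 2 counts over the 4 NM-FGF19 livers and 0 elsewhere and was not tested, and the injected human sequence is not part of a mouse gene table.

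Among 21 receptors, feedback inhibitors and early targets of ERK signalling, 2 rose and 0 fell. Changes were positive in 13 and negative in 8, from -1.32 to 3.82, with 7 higher and 2 lower at an unadjusted p under 0.05. Spred1, an inhibitor of the step from Ras to ERK, rose from 11.5, 14.2, 14.6 and 15.9 CPM in lean to 30, 30.7, 32.9 and 27.7 CPM in NM-FGF19 livers. All 4 treated livers lay near 30 CPM, and the change was 1.11 ± 0.12 (adjusted p = 0.00208). Spred1 was also higher in HFD control than in lean livers, at 24.9 ± 2.26 CPM (SD, n = 4, adjusted p = 0.00326), and did not pass between the high-fat groups (log2 change 0.28, adjusted p = 0.499). Its relative Spred2 had 16.5 ± 2.14 CPM in lean, 18.8 ± 1.15 in HFD control and 27.9 ± 5.03 in NM-FGF19 livers (SD, n = 4). The Spred2 change was 0.76 ± 0.14 (adjusted p = 0.0213), lost without lean 1 and lean 2 (up to 0.0585). Spry4 and Dusp6, which also damp ERK signalling and were chosen after their values were seen, did not pass. Their changes were 1.77 (adjusted p = 0.072) and 1.27 (adjusted p = 0.0718). In this list 1 gene fell without lean 4, and the median of 0.26 moved with the libraries, from 0.05 without NM-FGF19 4 to 0.56 without lean 3.

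A set of 10 genes was named by a rule that asked for a call against both lean and HFD control livers with all 4 NM-FGF19 libraries beyond the other 8, so their position follows from the rule and is given as a description. Besides Cyp8b1 and Csad, the low ones were Nat8f5, Tsku and Ces1b. Nat8f5, an N-acetyltransferase family member, had 4.52, 6.27, 8.05 and 8.78 CPM in lean and 0.75, 0.462, 1.5 and 0.857 CPM in NM-FGF19 livers. It changed by -2.94 ± 0.34 against lean (adjusted p = 0.00297) and by -2.48 against HFD control (adjusted p = 0.00745). Tsku, a secreted protein made by hepatocytes, had 92.2, 27.1, 58.1 and 60.6 CPM in lean and 16.6, 26.9, 13.4 and 10.4 CPM in NM-FGF19 livers. Lean 2 lay next to NM-FGF19 2, and the change of -1.82 (adjusted p = 0.0437) held only without lean 2 or NM-FGF19 2 (up to 0.111). Tsku was at 149 ± 47.2 CPM in HFD control livers, and the change against those was -3.15 (adjusted p = 0.00786).

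Ces1b and its neighbour Ces1g, which was chosen after its values were seen, encode carboxylesterases of the hepatocyte. Ces1g had 141, 98.4, 70.9 and 124 CPM in lean and 28.2, 54.3, 52.5 and 40.6 CPM in NM-FGF19 livers, a change of -1.31 ± 0.25 (adjusted p = 0.0227) that was lost without lean 4, NM-FGF19 1 and NM-FGF19 4 (up to 0.0734). Ces1b changed by -1.57 (adjusted p = 0.0433) and held only without NM-FGF19 2 (up to 0.106). Ces2g, another carboxylesterase, moved the other way, from 47.2 ± 7.72 to 77.4 ± 5.39 CPM (SD, n = 4), by 0.71 (adjusted p = 0.0162, 0.0559 without NM-FGF19 1). The Ces1, Cyp4a, Orm, Saa, Akr1c, Oas1 and Nat8 families hold near-identical copies, among which counting can divide reads, so values of their single members are uncertain to that extent.

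Of the high ones, Afp, the fetal plasma protein alpha-fetoprotein, had 3.25, 3.57, 1.83 and 1.88 CPM in lean and 7.6, 6.73, 6.55 and 6.92 CPM in NM-FGF19 livers. The 4 treated livers lay close together, above every lean value. Its change was 1.39 ± 0.25 (adjusted p = 0.0196), lost without lean 4, NM-FGF19 1 and NM-FGF19 4 (up to 0.0629), and 1.78 against HFD control (adjusted p = 0.00786). Fars2, the mitochondrial phenylalanyl-tRNA synthetase, rose from 27.6 ± 3.69 to 48 ± 6.33 CPM (SD, n = 4), by 0.80 ± 0.12 (adjusted p = 0.0122). Wnk4, a kinase that controls salt transporters, had 3.81 ± 1.92 CPM in lean and 16, 15.9, 15.2 and 9.36 CPM in NM-FGF19 livers. It changed by 1.88 (adjusted p = 0.0272, lost without lean 2, lean 4, NM-FGF19 1 and NM-FGF19 2, up to 0.0781). Alcam, a cell adhesion molecule, rose by 0.80 (adjusted p = 0.0224, lost without lean 2, lean 4, NM-FGF19 1 and NM-FGF19 4, up to 0.0737). Afp was the only called member among 18 tested markers of growth arrest and liver stress.

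Akr1c18, a 20-alpha-hydroxysteroid dehydrogenase chosen after its values were seen, was almost silent outside the treated group, with 8 counts over the lean and 4 over the HFD control livers against 273 over the NM-FGF19 livers. The treated livers had 2.18, 3.65, 0.401 and 3.36 CPM. Its log2 change was 4.71 ± 0.77 against lean (adjusted p = 0.0142) and 6.24 against HFD control (adjusted p = 0.00745), and it kept its call without each library in turn.

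None of 25 cholesterol synthesis genes passed the test against lean, and 1 of the 4 treated livers stood apart from the other 3. The list's median change was -0.13 against lean, with members from -0.88 to 0.54, 0 called and 1 at an unadjusted p under 0.05. For HFD control against lean the median was -2.10 with 23 of 25 lower. For NM-FGF19 against HFD control it was 2.10 with 12 of 25 higher. Genes of this pathway are known targets of the sterol-regulated factor SREBP2, which becomes active when cholesterol in the endoplasmic reticulum falls. The activity of SREBP2 was not measured here, and its part in these values was not tested.

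The promoter of Hmgcs1, the synthase at the head of the pathway, is shown because it carries both motifs searched for in this list. The stretch is taken from RefSeq on GRCm38.p6, chr13:119690171-119690320, plus strand, from 180 to 31 bases before the start of the gene.

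Hmgcs1: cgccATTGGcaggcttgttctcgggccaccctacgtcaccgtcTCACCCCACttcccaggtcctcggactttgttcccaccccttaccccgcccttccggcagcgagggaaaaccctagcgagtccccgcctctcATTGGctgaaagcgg

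Capitals mark 1 match to the SREBP element TCACNCCAC and 2 matches to the CCAAT box, read here on the other strand as ATTGG. Both strands were searched, and the motifs do not overlap. In windows from 250 bases before to 50 after the start, the CCAAT box was found in 16 of the 17 listed genes with a promoter in the table (94.1%), against 41.1% of 27025 promoters. The SREBP element in these exact letters was found in 1 of 17 (5.88%), against 1.44% of all. A match describes letters only.

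By library, the median difference of the 25 genes from the lean mean was 0.26 in NM-FGF19 1, 0.01 in NM-FGF19 2, -1.62 in NM-FGF19 3 and 0.27 in NM-FGF19 4. In NM-FGF19 3, all 25 members lay below all 4 lean livers, whereas 4, 8 and 2 did so in NM-FGF19 1, 2 and 4, where another 9, 7 and 8 lay above all 4 lean livers. The 4 HFD control livers had medians from -2.20 to -1.86. By the list's median, 3 treated livers thus lay near the lean mean, with single genes on both sides of the lean range, and NM-FGF19 3 lay nearer to the HFD control livers.

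Hmgcs1 itself had 99.4, 371, 214 and 251 CPM in lean and 343, 242, 57 and 310 CPM in NM-FGF19 livers, a change of 0.03 with a 95% interval from -1.03 to 1.08 (adjusted p = 0.987). Sqle, the squalene epoxidase, had 83, 174, 265 and 125 CPM in lean and 148, 80.2, 7.05 and 117 CPM in NM-FGF19 livers, with 1.96 ± 0.525 CPM in HFD control (SD, n = 4). Sqle had a change of -0.88 against lean (95% interval -2.32 to 0.56, adjusted p = 0.545), -0.49 without NM-FGF19 3 and -0.51 without lean 3. Against HFD control it was higher by 5.48 (adjusted p = 0.0161). Idi1, an isomerase of the mevalonate pathway, had 14.9 ± 3.91 CPM in lean (SD, n = 4) and 26.5, 11.1, 2.31 and 15.7 CPM in NM-FGF19 livers. The intervals are wide, so a residual difference from lean in either direction was not excluded by the test. Without NM-FGF19 3, the median against lean was 0.18 with 0 called, and 22 of the 25 were higher than in HFD control livers. Those counts against HFD control fell to 2, 4 and 5 without NM-FGF19 1, 2 and 4 and to 1, 6, 1 and 1 without HFD control 1, 2, 3 and 4.

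**Figure D3:**
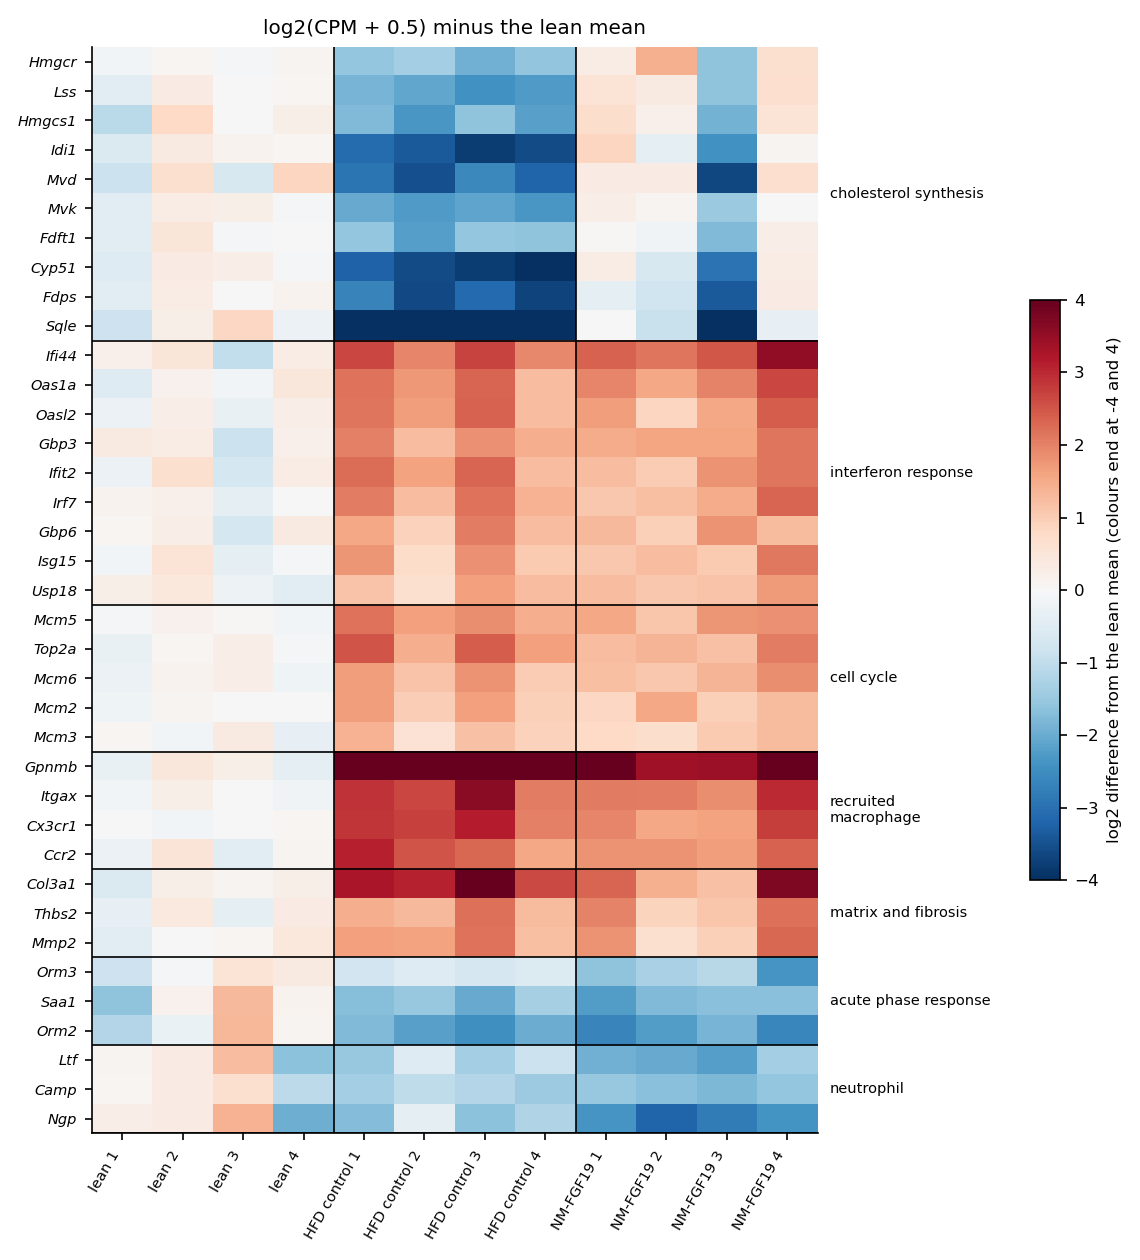
Each cell gives log2(CPM + 0.5) minus the lean mean of that gene in 1 library. The 37 rows come from 7 gene lists, the columns are the 12 livers, and colours end at -4 and 4. Cholesterol synthesis is shown by a choice of its members, and each other list only by its members called against lean. NM-FGF19 3 is low across the cholesterol synthesis rows, where NM-FGF19 1, 2 and 4 are near the lean colour. Interferon, macrophage and matrix rows are higher in most NM-FGF19 livers, which follows from showing called members only.

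Of 30 interferon-response genes, 9 rose and 0 fell, 27 had a positive change, and the median was 1.10 against -0.01 over all genes. The median was 1.38 for HFD control against lean and -0.01 between the high-fat groups, where 0 of 30 were called. The members that rose were Ifi44, Oas1a, Gbp3, Irf7, Usp18, Oasl2, Isg15, Gbp6 and Ifit2. Interferons act through STAT factors and IRF9 on promoters with the interferon element, searched here as a pair of TTTC runs with 2 free bases between them.

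Promoters of the 3 called members that hold the element are shown, each as the 100 bases before the start, from RefSeq on GRCm38.p6: Gbp3 at chr3:142559944-142560043 (plus strand), Isg15 at chr4:156200819-156200918 (minus strand) and Oas1a at chr5:120907526-120907625 (minus strand).

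Gbp3: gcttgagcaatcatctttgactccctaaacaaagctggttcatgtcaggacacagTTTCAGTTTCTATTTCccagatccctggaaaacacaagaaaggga
Isg15: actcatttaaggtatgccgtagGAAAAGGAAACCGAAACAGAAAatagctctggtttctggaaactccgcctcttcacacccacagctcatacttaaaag
Oas1a: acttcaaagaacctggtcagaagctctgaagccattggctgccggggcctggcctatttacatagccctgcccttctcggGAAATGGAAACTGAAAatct

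Capitals mark runs of overlapping matches to the element on either strand, 2 in Gbp3, 3 in Isg15 and 2 in Oas1a, the last 2 promoters showing it from the other strand as GAAA runs. Of the 22 members with a promoter in the table, 13 held the element (59.1%), against 3.99% of all promoters. Of the 7 called members with a promoter, 3 held it.

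Ifi44, an interferon-induced cytoplasmic protein, had 2.94, 3.71, 1.02 and 3.23 CPM in lean and 14.9, 12.7, 16.2 and 34.8 CPM in NM-FGF19 livers. NM-FGF19 4 was the highest. The groups did not overlap, which the rule that named Ifi44 asked for. The change was 2.84 ± 0.42 (adjusted p = 0.0122). Oas1a, an oligoadenylate synthetase that senses double-stranded RNA, had 1.95, 3.39, 2.7 and 4.24 CPM in lean and 12.9, 9.54, 13.2 and 21.6 CPM in NM-FGF19 livers, a change of 2.22 ± 0.32 (adjusted p = 0.00937). Gbp3, a guanylate-binding protein, had 8.62, 8.31, 3.46 and 7.69 CPM in lean and 19.6, 21, 21 and 30.8 CPM in NM-FGF19 livers, a change of 1.71 ± 0.27 (adjusted p = 0.0122). These 3 kept their calls without each library in turn.

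The other called members of the list lost their calls in some or all of those fits. Irf7, a master factor of the response, rose by 1.61 (adjusted p = 0.0214, lost without lean 3 and lean 4, up to 0.0598). Usp18, which removes the ISG15 modifier, rose by 1.32 (adjusted p = 0.0216, lost without lean 3, lean 4, NM-FGF19 1 and NM-FGF19 4, up to 0.0602). Isg15, the modifier itself, rose by 1.45 (adjusted p = 0.0457) and Oasl2 by 1.77 (adjusted p = 0.0233), each kept in 2 of 8 fits (Isg15 without lean 2 and NM-FGF19 3, Oasl2 without NM-FGF19 2 and 3, up to 0.103 and 0.0637). Ifit2 rose by 1.64 (adjusted p = 0.0471, kept only without NM-FGF19 2, up to 0.113), and Gbp6 by 1.58 (adjusted p = 0.0471, lost without each library, up to 0.0975). The count of 9 became 3 without lean 3, 3 without lean 4, 4 without NM-FGF19 1 and 4 without NM-FGF19 4. It was 3 with a median of 0.71 without lean 3 and NM-FGF19 4 together. Outside the list, Ifi27l2b, of an interferon-induced family, was among the 8 highest changes, with 5.89, 9.19, 13.6 and 8.21 CPM in lean and 74.6, 79, 48.7 and 90.2 CPM in NM-FGF19 livers. Its change was 2.99 (adjusted p = 0.0122), and HFD control livers held 33.1 ± 22 CPM (SD, n = 4). Both compared groups received mRNA in lipid nanoparticles 24 hours before killing, and no uninjected liver is among the 12.

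Among antigen presentation genes, 1 of 15 rose, Ciita, the master regulator of MHC class II (log2 change 1.73, adjusted p = 0.037, kept only without NM-FGF19 2, up to 0.0887). The median was 0.56.

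Of 14 markers of recruited and lipid-associated macrophages, 4 rose and 0 fell, 9 had a positive and 5 a negative change, the lowest -1.17 for Spp1, osteopontin (adjusted p = 0.407), and the median was 1.02 against 2.18 for HFD control against lean. Gpnmb, a glycoprotein of lipid-laden macrophages, had 0.137, 0.557, 0.408 and 0.0874 CPM in lean and 19.9, 7.62, 7.82 and 21.8 CPM in NM-FGF19 livers, a change of 5.63 ± 0.73 (adjusted p = 0.00795). HFD control livers held 42.8 ± 31.8 CPM (SD, n = 4), and the high-fat groups did not differ by the test (log2 change -1.58, adjusted p = 0.34). Itgax, which encodes CD11c, had 1.4, 1.9, 1.53 and 1.35 CPM in lean and 8.11, 7.96, 6.92 and 15.6 CPM in NM-FGF19 livers, a change of 2.64 (adjusted p = 0.00588).

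Cx3cr1, the fractalkine receptor of monocytes, rose from 1.72 ± 0.106 to 8.74 ± 4.08 CPM (SD, n = 4), by 2.34 (adjusted p = 0.00588). Ccr2, the receptor that brings monocytes out of the marrow, had 2.72 ± 0.957 and 11.4 ± 2.8 CPM (SD, n = 4), a change of 2.07 (adjusted p = 0.0142). All 4 calls were kept without each library in turn, and 2 of them without lean 3 and NM-FGF19 4 together. Trem2, a lipid receptor of the same cells, had 2.18 ± 1.04 CPM in lean (SD, n = 4) and 6.27, 4.81, 5.58 and 8.17 CPM in NM-FGF19 livers, above all 4 lean values, but did not pass (log2 change 1.52, adjusted p = 0.158). The summed level of the 14 markers overlapped between the groups, at 188 to 441 CPM in lean and 181 to 386 CPM in NM-FGF19 livers. In bulk liver, fewer cells of a type and less RNA per cell cannot be told apart.

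Markers of resident Kupffer cells, the liver's own macrophages, had a median of -1.81 with 0 of 7 passing and 5 of 7 at an unadjusted p under 0.05. DESeq2 called 5 of the 7 lower, beside 368 of all 15274 genes tested. Cd163, a scavenger receptor for haemoglobin, had 42.3, 60.8, 77.1 and 42.9 CPM in lean and 5.83, 1.42, 18.3 and 0.395 CPM in NM-FGF19 livers. Timd4, a receptor for dying cells, had 12.5, 17.1, 12.9 and 13.1 CPM in lean and 2.11, 0.462, 6.15 and 0.198 CPM in NM-FGF19 livers. Neither overlapped, NM-FGF19 3 was the highest treated liver for both, and neither passed (log2 change -3.10, adjusted p = 0.0965, and -2.63, adjusted p = 0.0942). Without NM-FGF19 3 both passed, at adjusted p = 0.025 and 0.0142. HFD control livers held 0.818 ± 0.392 CPM of Cd163 and 0.303 ± 0.0688 CPM of Timd4 (SD, n = 4). The 7 markers summed to 427 to 583 CPM in lean and 92.0 to 379 CPM in NM-FGF19 livers.

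Extracellular matrix genes had positive changes in 26 of 28 members, with a median of 1.45 against 1.81 for HFD control against lean, yet only 3 passed. An unadjusted p under 0.05 was reached by 22. DESeq2 called 19 higher, beside 601 of all 15274 genes tested. Thbs2, a matrix glycoprotein, rose by 1.81 (adjusted p = 0.0325), Mmp2, a gelatinase, by 1.76 (adjusted p = 0.0433), and Col3a1, a chain of fibrillar collagen, by 2.54 (adjusted p = 0.0482). Each held only without NM-FGF19 2 or NM-FGF19 3 (up to 0.0871, 0.104 and 0.106), and all 3 calls were lost with limma voom. Col1a1, the main fibrillar collagen, had 4.24, 10, 10.5 and 10.6 CPM in lean and 46.4, 21.2, 19.3 and 138 CPM in NM-FGF19 livers. All treated livers lay above all lean livers, NM-FGF19 4 highest, and the change was 2.67 ± 0.70 (adjusted p = 0.0897), or 1.72 without NM-FGF19 4. The list's median was 0.96 without that library, and its count was 0 without NM-FGF19 1 or 4 or any single lean library. Among 14 stellate cell markers all changes were positive, with a median of 0.65, and Reln, a glycoprotein of stellate cells, passed, from 44.8 ± 6.17 to 110 ± 35.2 CPM (SD, n = 4, log2 change 1.29, adjusted p = 0.0224, lost without lean 1, 2 and 4 and NM-FGF19 1 and 4, up to 0.0741). The count was 2 without NM-FGF19 2 or NM-FGF19 3, the median of these markers was 0.43 without NM-FGF19 4, and their sum was 380 to 489 CPM in lean and 491 to 897 CPM in NM-FGF19 livers.

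Of 25 cell cycle genes 5 rose, 0 fell, 23 had a positive change and the median was 0.84, against 1.35 for HFD control against lean. Mcm5, a helicase subunit, had 2.19, 2.65, 2.39 and 2.1 CPM in lean and 7.67, 5.54, 9.09 and 9.49 CPM in NM-FGF19 livers, with no overlap and a change of 1.77 ± 0.22 (adjusted p = 0.00324). Mcm6, another subunit, rose from 4.17 ± 0.786 to 11.8 ± 3.11 CPM (SD, n = 4), by 1.5 (adjusted p = 0.0122). Both kept their calls without each library in turn. Mcm2 rose by 1.28 (adjusted p = 0.0207, lost without lean 4 and NM-FGF19 4, up to 0.0568), Mcm3 by 1.02 (adjusted p = 0.0432, kept only without lean 3 and NM-FGF19 2, up to 0.104), and Top2a, the topoisomerase of dividing cells, by 1.76 (adjusted p = 0.0196, lost without lean 2, lean 4 and NM-FGF19 4, up to 0.0586). Of the 6 listed subunits of the MCM helicase, which licenses DNA replication, Mcm4 (log2 change 0.83, adjusted p = 0.0644) and Mcm7 (0.19, adjusted p = 0.498) did not pass. Mki67, the usual proliferation marker, had 1.99, 3.06, 3.77 and 0.699 CPM in lean and 4.23, 4.46, 4.68 and 10.1 CPM in NM-FGF19 livers and did not pass (log2 change 1.31, adjusted p = 0.136). HFD control livers held 9.16 ± 1.8 CPM of Mki67 (SD, n = 4). The count of 5 was 3 without lean 2, 2 without lean 4 and 2 without NM-FGF19 4.

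**Figure D4:**
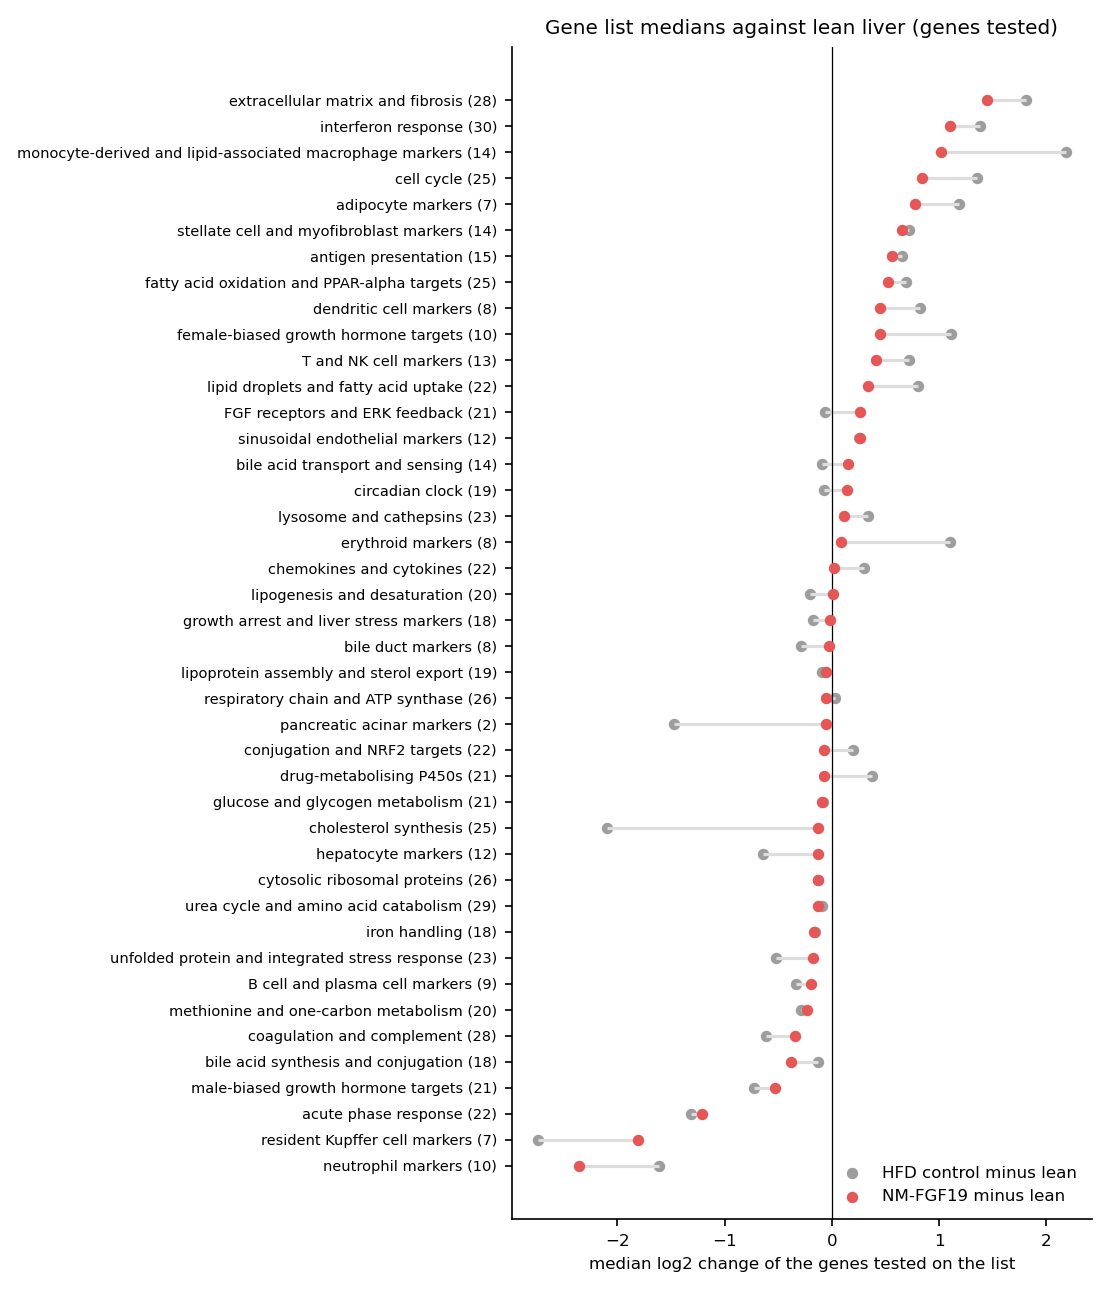
Median log2 change of the members of 42 gene lists (rows), in red for NM-FGF19 minus lean and in grey for HFD control minus lean, which share the lean libraries. Neutrophil, Kupffer and acute phase lists lie lowest in red and matrix, interferon and recruited macrophage lists highest, while cholesterol synthesis is near 0 in red and at -2.10 in grey.

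Over all genes tested, 1.01% were called higher, and the counts for fat handling stand beside that share. Of 25 genes of fatty acid oxidation and other PPAR-alpha targets, 1 rose, with a median of 0.52, where HFD control against lean had 0.69 and 14 higher. A positive change was seen in 22 of the 25 and a negative one in 3, and 12 were higher at an unadjusted p under 0.05. The 1 that rose was Vnn1, the pantetheinase, with 7.12, 6.73, 2.55 and 2.1 CPM in lean and 44.1, 46.2, 41.9 and 86.1 CPM in NM-FGF19 livers (log2 change 3.55 ± 0.58, adjusted p = 0.0187, lost without lean 3 and NM-FGF19 4, up to 0.0528). Outside that list, Cyp4a31, of the fatty acid omega-hydroxylase family, rose by 3.49 (adjusted p = 0.0187, lost without lean 2 and lean 4, up to 0.053). Vldlr, the receptor for very low density lipoprotein, had 0.36 ± 0.117 CPM in lean (SD, n = 4) and 2.04, 6, 1.67 and 14.4 CPM in NM-FGF19 livers (log2 change 4.04, adjusted p = 0.0496, kept only without NM-FGF19 3, up to 0.117).

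Of 22 genes of lipid droplets and fatty acid uptake, 2 rose, and the median was 0.34 against 0.80 for HFD control against lean. Changes were positive in 15 and negative in 7 of them, with 6 higher and 3 lower at an unadjusted p under 0.05. Cd36, a fatty acid transporter, had 28.3, 31, 35.2 and 24.8 CPM in lean and 84.1, 96.5, 76.1 and 139 CPM in NM-FGF19 livers, and HFD control livers held 193 ± 101 CPM (SD, n = 4). All 4 treated livers were above all lean livers, and the Cd36 change was 1.73 ± 0.33 (adjusted p = 0.0247, kept only without NM-FGF19 2 and 3, up to 0.0764). Gpam, which starts triglyceride synthesis, rose by 0.97 (adjusted p = 0.0479, kept only without NM-FGF19 3, up to 0.119). The list's median was 0.16 without NM-FGF19 4. Cidea, a lipid droplet protein with 0.0685, 0, 0 and 0 CPM in lean, had 1.23, 0.385, 0 and 8.04 CPM in NM-FGF19 and 20 ± 25.9 CPM in HFD control livers (SD, n = 4), and did not pass against lean (adjusted p = 0.221). The adipocyte markers Adipoq, Lep, Retn, Plin1 and Ucp1 had between 0 and 3 counts each over the 4 NM-FGF19 livers and were too low to be tested. Of the 7 tested adipocyte markers 0 were called. All 7 had a positive change, and the median was 0.78, against 1.19 for HFD control against lean. The 12 listed markers summed to 297 to 2270 CPM in lean and 1730 to 2860 CPM in NM-FGF19 livers, so the groups overlapped. None of 20 genes of lipogenesis and desaturation passed. Scd1, the desaturase that makes oleic acid, had 14400 CPM in lean 3, against 6150 to 6950 CPM in the other lean livers and 1630 to 7090 CPM under NM-FGF19. Its change was -1.14 (adjusted p = 0.266), or -0.74 without lean 3.

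Acute phase proteins, which hepatocytes secrete in inflammation, had negative changes in 20 of 22 genes. The median was -1.21 against -1.31 for HFD control against lean, 3 fell and 18 reached an unadjusted p under 0.05. Orm2, an orosomucoid, had 515, 978, 2960 and 1250 CPM in lean and 188, 246, 325 and 191 CPM in NM-FGF19 livers. The lean livers spread far more than the treated ones, and the Orm2 change was -2.58 ± 0.44 (adjusted p = 0.0187, lost without NM-FGF19 1 and NM-FGF19 4, up to 0.063). Orm3 fell too (log2 change -1.65, adjusted p = 0.0224, lost without lean 2, 3 and 4 and NM-FGF19 1, up to 0.0754). Saa1, serum amyloid A, had a log2 change of -2.14 (adjusted p = 0.037, kept only without lean 1, up to 0.103). Saa1 and Saa2 together took 0.509% to 3.93% of lean counts and 0.348% to 0.596% of NM-FGF19 counts. Without lean 3 the median of the 22 was -0.67 and the count was 1, and it was 7 without lean 1, 1 without lean 2, lean 4 or NM-FGF19 4, and 0 without NM-FGF19 1. Serpina10, a plasma inhibitor of coagulation factors chosen after its values were seen, fell from 538 ± 213 to 204 ± 24.1 CPM (SD, n = 4), a log2 change of -1.40 (adjusted p = 0.0156).

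All 10 tested neutrophil markers had negative changes, with a median of -2.36 against -1.61 for HFD control against lean, and 3 fell. Camp, the granule peptide cathelicidin, had 1.44, 1.81, 2.34 and 0.393 CPM in lean and 0.136, 0.0769, 0.0334 and 0.132 CPM in NM-FGF19 livers, a change of -3.91 ± 0.61 (adjusted p = 0.0122). NM-FGF19 values of Camp lie at the level of a few counts per library. Ngp, a granule protein, changed by -4.19 (adjusted p = 0.0227, lost without lean 2 and each NM-FGF19 library, up to 0.0675), and Ltf, lactoferrin, by -3.26 (adjusted p = 0.0433, kept only without lean 4, up to 0.113). S100a8, a calcium-binding protein of neutrophils and monocytes, was at 12.7 ± 7.84 CPM in lean and 2.61 ± 2.26 CPM in NM-FGF19 livers (SD, n = 4) and did not pass (adjusted p = 0.0659). The count of 3 was 1 without lean 2 and without each of NM-FGF19 1, 2 and 3. The 10 markers summed to 25.5 to 103 CPM in lean and 6.95 to 31.3 CPM in NM-FGF19 livers.

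The remaining genes of the 8 highest and 8 lowest changes had mixed roles. Ptgds, the lipocalin-type prostaglandin D2 synthase, had 7.67, 5.99, 4.53 and 5.15 CPM in lean and 0.75, 0.269, 1 and 0.132 CPM in NM-FGF19 livers, a change of -3.42 ± 0.58 (adjusted p = 0.0166) kept without each library, and HFD control livers held 0.371 ± 0.305 CPM (SD, n = 4). Slc13a5, the citrate transporter, and Isyna1, the inositol-3-phosphate synthase, were lower by log2 changes of -2.82 (adjusted p = 0.0433, kept only without lean 1, up to 0.107) and -2.70 (adjusted p = 0.037, kept only without lean 1, 3 and 4, up to 0.0947). Both were highest in lean 3, at 57.7 and 120 CPM, and without it the Isyna1 change was -1.74. Crybg2 was higher by 2.54 (adjusted p = 0.0322, kept only without lean 1 and lean 3, up to 0.0833).

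Calls among genes of intermediary metabolism stand beside the 1.49% of all genes tested that were called. Bhmt, which remethylates homocysteine with betaine, was the only 1 of 20 methionine and one-carbon genes to pass, at 1740 ± 525 CPM in lean, 958 ± 246 in HFD control and 591, 358, 721 and 405 CPM in NM-FGF19 livers (log2 change -1.75 ± 0.28, adjusted p = 0.0122). Ugp2, which makes UDP-glucose for glycogen, was the only 1 of 21 glucose genes (log2 change 0.90, adjusted p = 0.0457, kept only without NM-FGF19 1, up to 0.113). Igf1, the growth hormone target, had 660 ± 158 CPM in lean and 411 ± 24 CPM in NM-FGF19 livers (SD, n = 4) and did not pass (log2 change -0.68, adjusted p = 0.109). Of the 42 lists, 26 had no called member, among them drug-metabolising P450s (0 of 21), the urea cycle and amino acid catabolism (0 of 29), the circadian clock (0 of 19), the respiratory chain (0 of 26) and coagulation and complement (0 of 28). In lists of this size a count of 0 lies near the share over all genes, so it sets no list apart.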

How the data were processed

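Raw counts per gene for 12 mouse livers were deposited by the authors. Per the submitters' processing notes, reads were handled with Trimmomatic, STAR and featureCounts on mm39. For versions, annotation and strand setting: not given in the sources. Per the labels' protocols, 100 ng of RNA entered Illumina stranded mRNA preparation, sequenced as 101-nt pairs. Overlapping and antisense genes are therefore uncertain.

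Of 55359 gene IDs, 52083 matched a symbol (the rest held 0.515% of counts), and 15274 passed edgeR's filterByExpr (minimum count 10). One edgeR 4.0.16 quasi-likelihood fit (R 4.3.3, robust, TMM) covered all 12 libraries with group as the only term, with 2-sided tests. Standard errors were derived from the F values, and CPM are counts scaled to each library's total times its TMM factor. The script was tested on simulated data. DESeq2 1.42.0 and limma 3.58.1 voom served as alternatives. The least different replicate pair still had a chi-square per degree of freedom of 40.7, so no library was counted as a repeat.

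Members and gene lists were chosen with earlier results of these data known. The 42 lists hold 768 genes, of which 767 matched. Genes were named by a rule with 4 parts: the 8 highest and 8 lowest called changes with a mean of at least 2 CPM and no overlap; 22 set genes; from each list up to 2 called members moving its main way and 1 moving the opposite way; and 5 genes each way called against both other groups with all NM-FGF19 livers outside the other 8. Others are Akr1c18, Bdh1, Ces1g, Col3a1, Cyp4a10, Cyp4a14, Elovl2, Eng, Gbp3, Gbp6, Hspg2, Idi1, Ifit2, Irf7, Isg15, Ltf, Mcm2, Mcm3, Oasl2, Pctp, Plxnd1, S100a8, S100a9, Saa1, Serpina10, Tie1, Top2a and Usp18, named after their values were seen, as were Abcd2, Baat, Cdkn1a, Cyp2b9, Dusp6, Igfbp1, Mcm4, Mcm7, Spp1, Spry4 and the untested genes. Not every set gene is reported here. Promoters came from RefSeq (GRCm38.p6), and only these sequences carry that build's coordinates.

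Replicate numbers are shared by lean and NM-FGF19 livers, but their deviations correlated at -0.196, -0.040, -0.090 and -0.035, so the numbers were not taken as pairs.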

Additional observations from a re-analysis of the deposited data

Results flagged for a closer look

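Among 178 groups of 4 values (89 named genes in lean and in NM-FGF19 livers), 24 (13.5%) had 1 library whose gap to its nearest neighbour was past Dixon's 95% limit as a share of the group's range. That limit flags about 1 in 20 groups only for independent, normally distributed values. The groups here are CPM from the same libraries, so 13.5% is a description and no excess over chance. Of the 24, 11 were the highest values in NM-FGF19 4. They were Ccr2 at 15.6 CPM (others 9.43 to 10.3), Itgax at 15.6, Ifi44 at 34.8, Gbp3 at 30.8, Isg15 at 35.7, Mki67 at 10.1, Vnn1 at 86.1, Cidea at 8.04, Fgf21 at 4.91, S100a8 at 5.96 and S100a9 at 8.9 CPM. That library was also the lowest for Wnk4, at 9.36 CPM (others 15.2 to 16). NM-FGF19 2 was the highest for Cyp7a1, at 20.2 CPM (others 3.28 to 5.7).

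In lean livers, lean 3 was highest for Fgfr4 at 73.7, Scd1 at 14400, Slc13a5 at 57.7 and Trem2 at 3.72 CPM and lowest for Pctp, the phosphatidylcholine transfer protein, at 21.9 CPM. Lean 1 was highest for Cyp4a10, a fatty acid omega-hydroxylase, at 14.0 CPM and for Cidea at 0.0685 CPM, and lowest for Col1a1 at 4.24 CPM. Lean 2 was highest for Timd4 at 17.1 and lowest for Vldlr at 0.186 CPM. Lean 4 was highest for Nr0b2 at 62.8 CPM. Of the 228 called genes, lean 3 was the lean library farthest from the treated group in 105 and NM-FGF19 4 the treated library farthest from lean in 127.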

How the results depend on the processing

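The counts of 154 genes higher and 74 lower moved with the method. DESeq2 gave 601 and 368, limma voom 65 and 47, a fit of the 2 groups alone 74 and 43, library totals in place of TMM 346 higher, and voom with quality weights 164 lower. With library totals the median change of all genes was 0.17, against -0.01 with TMM, so list medians nearer to 0 than that shift have no settled sign. A fit with the replicate number as a replicate block gave 25 and 15; the numbers do not pair the mice. Chosen after seeing the data, the fit without lean 3 and NM-FGF19 4 gave 29 and 20, and without HFD control 1, 2, 3 or 4, whose libraries share the spread estimate, the counts were 85 and 40, 129 and 64, 181 and 92, and 117 and 53. Leaving out each compared library gave 43 to 130 higher and 24 to 71 lower. For the 89 named and tested genes, no value changed sign while called, and of 1492 refits of the 65 called genes 1089 kept the call and 403 lost it, and of 551 refits of the others 26 gained one. The cause of each change was not tested. With 4 livers a group, low genes such as Camp rest on few counts, and intervals cover these samples only.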

Other observations

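A set of 4 genes, chosen after their values were seen because they were called, are known from the vessel wall, and they stand for no list. Tie1, an endothelial receptor kinase, had 18, 16.2, 12.5 and 17.3 CPM in lean and 28.4, 28.8, 29.8 and 33.3 CPM in NM-FGF19 livers (log2 change 0.91 ± 0.13, adjusted p = 0.00931). Hspg2, the basement membrane proteoglycan perlecan, had 34.2 ± 0.944 and 74.3 ± 13.7 CPM (SD, n = 4, log2 change 1.12, adjusted p = 0.00838). Both kept their calls without each library in turn. Eng, a TGF-beta co-receptor of endothelium, rose by 0.67 (adjusted p = 0.0227, lost without lean 2, NM-FGF19 1 and NM-FGF19 4, up to 0.0754), and Plxnd1, a semaphorin receptor, by 0.82 (adjusted p = 0.0187, lost without NM-FGF19 1 and NM-FGF19 4, up to 0.0537). HFD control livers held 35.3 ± 3.89 CPM of Tie1 and 84.5 ± 17 CPM of Hspg2 (SD, n = 4). Of 12 sinusoidal endothelial markers, 0 were called, with a median of 0.26 and summed levels of 616 to 722 CPM in lean and 713 to 822 CPM in NM-FGF19 livers.

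Some lipid enzymes outside the lists were also higher. Elovl2, which elongates polyunsaturated fatty acids, had 395 ± 39.3 CPM in lean and 831 ± 143 CPM in NM-FGF19 livers (SD, n = 4, log2 change 1.07, adjusted p = 0.0153). Pctp had 49.5, 45.2, 21.9 and 47 CPM in lean and 109, 181, 115 and 185 CPM in NM-FGF19 livers (log2 change 1.85, adjusted p = 0.0156), and both kept their calls without each library. Bdh1, a ketone body dehydrogenase, rose by 1.41 (adjusted p = 0.036, kept only without lean 1, lean 3 and NM-FGF19 3, up to 0.0764).

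Other large differences did not pass, and the treated livers spread widely. Cyp4a14, a fatty acid omega-hydroxylase, had 0.89, 0.186, 0.662 and 0.0874 CPM in lean and 16.4, 104, 8.29 and 256 CPM in NM-FGF19 livers (adjusted p = 0.0662). Cyp2b9, a P450 expressed more in female livers, had 0 counts in every lean liver and 23.5, 198, 6.55 and 91.3 CPM in NM-FGF19 livers (adjusted p = 0.0919). Abcd2, a peroxisomal transporter, had 1.44 to 3.57 CPM in lean and 28.2, 62.7, 4.08 and 55.7 CPM in NM-FGF19 livers (adjusted p = 0.0794).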
